A study of Rattus norvegicus with 6 samples.

Results

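The genes described here are transcription factors and chromatin regulators, 80 of the 3158 named genes measured. They were chosen by gene symbol alone: every symbol of the array that began with the name of a set of regulator families (zinc finger Zfp and Znf, Klf, Sox, Fox, Hox, Pou, numbered nuclear receptors, Atf, Creb, Jun, Fos, Ets, Gata, Tcf, Cebp, Lmo, Lhx, Runx, Smad, E2f, Id, Hdac, Smarc, Hmg and Kat), with Atf4 left out. No member of the Pou, Ets, Lhx or E2f families was measured under a name of its own. A clone named for both Hmgb1 and a pseudogene of it was not counted. The 28 zinc finger genes were the largest group, and 63 members were measured by 1 clone.

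RNA came from JA, JB and Amy, cell lines grown from rat esophageal tumors induced by reflux. Each line was compared on 2 cDNA arrays with a 1 to 1 mixture of 2 normal esophageal cell lines, here the normal pool, which served as the control on every array. On 1 array of a line its RNA carried the dye Cy3 and the pool carried Cy5, and on the other the dyes were exchanged. These are named the Cy3 and the Cy5 array, after the line's dye. Values are log2 ratios of line over pool, so 1 means 2-fold higher in the line and -1 means 2-fold lower. That direction was taken from the order of names in the sample titles and is likely rather than settled, and base 2 was assumed. With the ratio turned, every higher would read lower, Lmo1 would be the lowest member and Hoxc4 the highest. The labels name no treatment, animal or passage, and each line is a single extract, so p-values measure only the spread between the 3 lines. Below, a gene "rose" or "fell" where the mean of the 3 lines differed from 0 in limma at an adjusted p under 0.05.

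Transcription factors bind DNA at particular sequences and raise or lower the transcription of nearby genes. Chromatin regulators change how accessible that DNA is, by acetylating or deacetylating histones (Kat and Hdac enzymes), moving nucleosomes (Smarc proteins) or bending and loosening DNA (Hmg proteins). In the esophagus, as in other organs, Hox and Sox genes carry positional and lineage identity, while Klf, Jun and Fos genes respond to growth and stress signals.

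Of the 80 genes, 19 rose, 20 fell and 41 did not pass. The share that passed was 48.8%, against 53.5% of all 7180 features tested (20.7% higher and 32.8% lower) and 55.1% of all named genes (23.1% higher and 32.0% lower). A share this near the background says nothing particular of these genes as a set. Their median was -0.06, that of all named genes -0.06 and that of all features -0.12, a shift that centring each array on its median removes. After centring, 23 members were called higher and 18 lower, against 25.7% and 27.6% of all features and 29.1% and 27.3% of named genes. A mean of at least 1 was reached by 5 genes that rose and a mean of -1 or lower by 14 that fell. On all 6 arrays, 3 members were at least 2-fold higher and 6 at least 2-fold lower, against 2.83% and 8.12% of all features and 2.98% and 8.93% of named genes. Without JA 6 members were called higher and 14 lower. The spread of the pool itself was not measured. When it was given that of a mean of 2 lines, as seen between the tumor lines, 5 members were called higher and 12 lower. Called higher were Lmo1, Klf7, Hmgb2, Hdac3 and Klf10. Called lower were Hoxc4, Sox18, Hoxb2, Zfp799, Zfp870, Hoxa4, Crebrf, Tcf4, Zfp575, Zfp74, Zfp579 and Nr3c1.

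The bases just upstream of an annotated start site are shown for the 2 highest and the 2 lowest called genes for which RefSeq (build GRCr8) gave a promoter, since they lie toward either end of the members' range. Sox18, Hoxb2 and Zfp799, which were lower than Zfp870, are not shown. A promoter was matched for 69 of the 80 members. Each line holds the 250 bases before an annotated start, 5′ to 3′ on the gene's own strand: Lmo1 at chr1:172603158-172603407 (minus strand), Klf7 at chr9:73020057-73020306 (minus), Hoxc4 at chr7:136048809-136049058 (plus) and Zfp870 at chr7:12654321-12654570 (minus). The gene spans of Lmo1 and Klf7 in RefSeq end at 172603282 and 73020167, inside their windows. Part of each of these windows therefore lies within the gene span, unlike those of Hoxc4 and Zfp870. Both GC boxes marked for Lmo1 lie in that part. Capitals mark matches, on either strand, to the GC box GGGCGG, the CACCC box CCACCC, the CCAAT box, the AP-1 site TGACTCA, the E-box CACGTG and the TATA box TATAAA.
Lmo1: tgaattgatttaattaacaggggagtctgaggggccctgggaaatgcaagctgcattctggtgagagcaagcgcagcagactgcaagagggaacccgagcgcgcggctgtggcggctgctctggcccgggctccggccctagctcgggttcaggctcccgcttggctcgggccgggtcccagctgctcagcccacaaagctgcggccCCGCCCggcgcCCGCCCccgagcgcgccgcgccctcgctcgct
Klf7: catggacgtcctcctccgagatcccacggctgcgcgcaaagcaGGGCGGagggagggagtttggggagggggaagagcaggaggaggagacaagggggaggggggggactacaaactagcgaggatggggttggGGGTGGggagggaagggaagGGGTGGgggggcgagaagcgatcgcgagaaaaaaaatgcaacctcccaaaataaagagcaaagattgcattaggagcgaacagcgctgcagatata
Hoxc4: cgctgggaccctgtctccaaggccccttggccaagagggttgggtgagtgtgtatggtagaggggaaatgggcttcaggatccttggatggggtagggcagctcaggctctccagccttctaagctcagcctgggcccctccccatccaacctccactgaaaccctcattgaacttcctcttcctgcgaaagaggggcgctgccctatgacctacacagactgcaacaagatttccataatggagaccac
Zfp870: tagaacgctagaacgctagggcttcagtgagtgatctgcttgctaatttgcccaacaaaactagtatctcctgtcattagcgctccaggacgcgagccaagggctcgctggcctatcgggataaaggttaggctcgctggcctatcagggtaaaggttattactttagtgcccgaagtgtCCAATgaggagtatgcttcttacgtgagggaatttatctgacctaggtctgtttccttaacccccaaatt
Lmo1 held 2 GC boxes and Klf7 held 1 GC box and 2 CACCC boxes, while Zfp870 held 1 CCAAT box and Hoxc4 held none of the 6 motifs. Among all 27457 RefSeq promoters of this length, 32.4% held a GC box, 26.6% a CACCC box, 34.3% a CCAAT box, 3.98% an AP-1 site, 5.79% an E-box and 13.1% a TATA box. Of the 69 members' promoters, 39 held a GC box, 17 a CACCC box, 25 a CCAAT box, 2 an AP-1 site, 7 an E-box and 5 a TATA box. The Lmo1 window was 69.2% G or C, against 59.6% for Klf7, 57.2% for Hoxc4, 48.4% for Zfp870 and a median of 52% over all windows. A match is a string of letters, and binding was not measured.

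Lmo1 rose most among the members. It encodes a LIM-domain protein that binds no DNA itself and joins DNA-binding factors to cofactors such as Ldb1. Its log2 ratios were 4.13 and 4.33 in JA, 4.11 and 4.33 in JB, and 4.40 and 3.64 in Amy, giving here and below the Cy3 array and then the Cy5 array. All 6 arrays lay close together, and the spread between lines was small beside the ratio. The mean was 4.16 ± 0.12 (SD, n = 3 lines), or 17.8-fold (limma adjusted p = 4.50e-05). The call was kept under every alternative run on gene values. It rests on 1 clone, whose 2 spots both lay between 3.51 and 4.94 on every array. Of the listed basic helix-loop-helix and LIM partner genes, 5 of 20 were measured: Tcf4 fell, and Tcf12, Ldb1 (-0.34 ± 0.25), Tal1 (-0.11 ± 0.18) and Neurod1 did not pass.

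**Figure D1:**
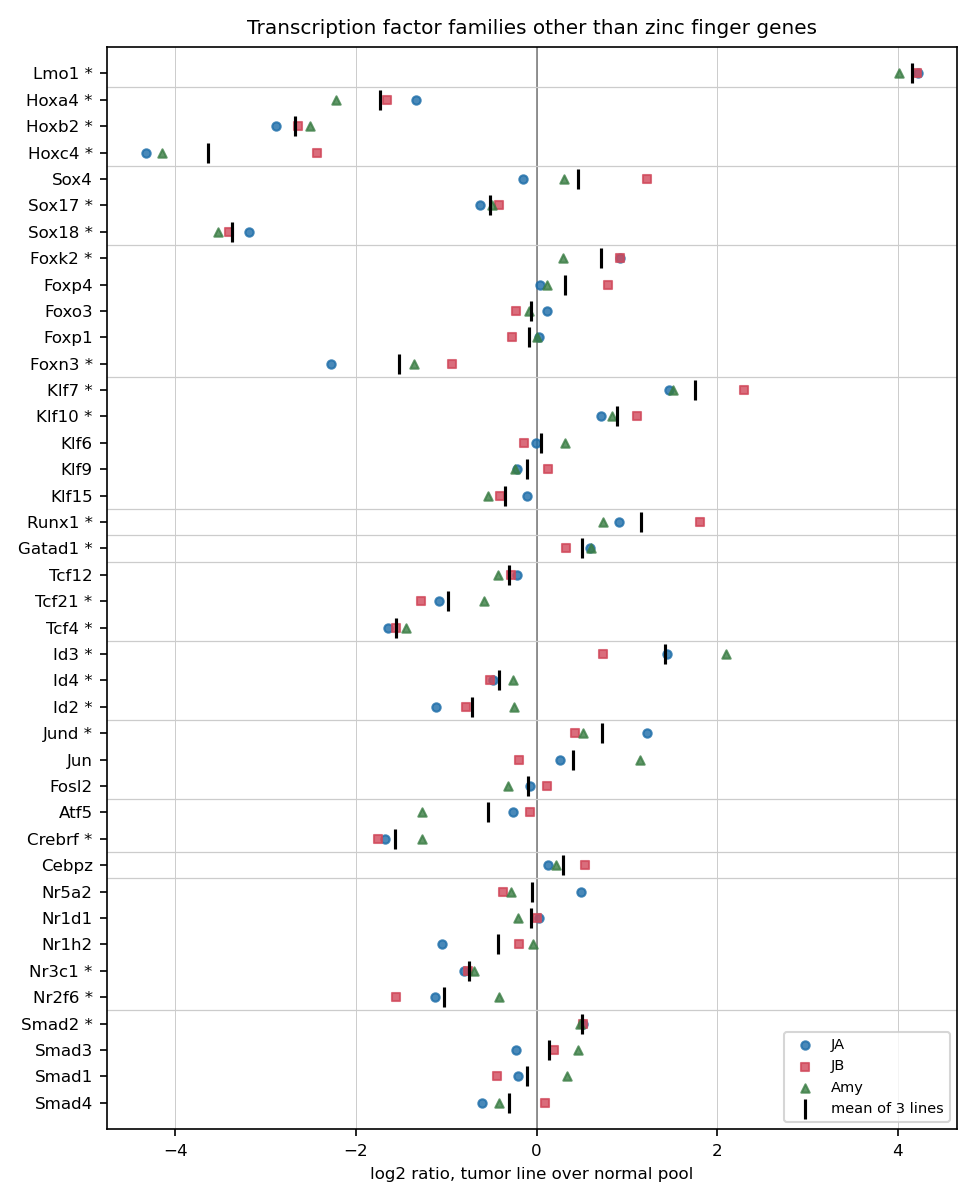
Log2 ratio of each tumor line over the normal pool (x axis) for the 40 members outside the zinc finger and chromatin families, grouped by family. Circles, squares and triangles are JA, JB and Amy (mean of 2 arrays), bars are means of the lines, and stars mark genes that passed; Lmo1 lies near 4.16 and all 3 Hox genes lie left of 0 in every line.

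All 3 measured Hox genes fell, beside 32.8% of all features. Hox genes encode homeodomain factors that set position along the body axis, and these belong to clusters on different chromosomes. Hoxc4 was the lowest of all members, at -4.03 and -4.63 in JA, -2.15 and -2.72 in JB, and -4.04 and -4.25 in Amy. JB stood above the other lines in both dye orientations, by at least 1.54, and did not overlap them. The mean of Hoxc4 was -3.64 ± 1.05, or 12.4-fold lower (adjusted p = 0.00184). Hoxb2 read -2.70 and -3.07 in JA, -2.06 and -3.22 in JB, and -2.82 and -2.20 in Amy. The lines overlapped, with a mean of -2.68 ± 0.19, or 6.41-fold lower (adjusted p = 1.83e-04). Its 2 spots differed more than the line means did, at -2.07 and -4.06 on the Cy5 array of JA. Hoxa4 read -0.92 and -1.75 in JA, -1.62 and -1.70 in JB, and -2.68 and -1.76 in Amy, a mean of -1.74 ± 0.45 (adjusted p = 0.00207). On the Cy3 array of Amy the 2 spots of Hoxa4 read -3.39 and -1.97. Each of the 3 rests on 1 clone, and each kept its call when any line was left out.

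Among the Sox genes, which encode HMG-box factors of lineage choice, Sox18 and Sox17 fell and Sox4 did not pass. Sox18, a factor of blood and lymph vessel development, read -3.46 and -2.91 in JA, -3.51 and -3.30 in JB, and -3.46 and -3.60 in Amy. The lines overlapped at a mean of -3.37 ± 0.17, or 10.4-fold lower (adjusted p = 9.03e-05). Sox17, a factor of endoderm and vessels, was slightly lower at -0.51 ± 0.10 (adjusted p = 0.0169), a call lost without JA (0.0963) or Amy (0.0721). Sox4, which is often active in progenitor and tumor cells, read -0.06 and -0.24 in JA, 1.20 and 1.25 in JB, and 0.19 and 0.42 in Amy. JB was the highest line on both arrays and JA was below the pool on both, and the mean of 0.46 ± 0.70 did not pass (adjusted p = 0.210). Its 2 clones disagreed on JA, at 0.26 and -0.56, while JB stood at 1.47 and 0.98 and Amy at 0.37 and 0.24.

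Markers of other cell types were lower in the same arrays, to be read beside the 32.8% of all features that fell. All 10 measured fibroblast and matrix markers fell, with medians of -4.09 in JA, -4.45 in JB and -3.93 in Amy. Of 8 leukocyte markers 7 fell and 1 rose, with line medians from -3.74 to -3.53. All 3 muscle markers fell, with line medians from -4.94 to -4.72, as did all 3 endothelial markers, from -1.66 to -1.42. Of 13 listed squamous markers only Lgals7 (-5.82 ± 1.01) and Cstb (-0.68 ± 0.46) were measured, and both fell. Of 10 simple epithelial markers Cd24 fell to -3.58 ± 1.30 and Krt8 stood at 0.41 ± 0.40. These are ratios, so they do not show whether a marker was absent from the lines, and most defining esophageal keratins were not analysed here. Hox genes, Sox17, Sox18, Tcf21 and Tcf4 are known to be active in mesenchymal or endothelial cells, and the part of these markers in their fall was not tested. A lower ratio also cannot tell fewer cells of a type in a line than in the pool from less RNA per cell.

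Of the Fox genes, which encode forkhead factors, Foxn3 fell, Foxk2 rose, and Foxp4, Foxo3 and Foxp1 did not pass. Foxn3, a repressor linked to the response to DNA damage, read -2.14 and -2.42 in JA, -0.98 and -0.89 in JB, and -1.30 and -1.42 in Amy. JA was the lowest line in both dye orientations. The mean was -1.53 ± 0.69 (adjusted p = 0.00768), and its 2 clones stood at -1.14 and -1.91. They disagreed most in JB, at -0.23 and -1.64, beside -1.98 and -2.58 in JA and -1.21 and -1.52 in Amy. Foxk2, a regulator of metabolism and autophagy genes, stood at 0.71 ± 0.37 (adjusted p = 0.0204), with JA at 0.93, JB at 0.92 and Amy at 0.29. Its clones stood at 1.07 and 0.35, and the call was lost without JA (0.121). Foxp4 stood at 0.31 ± 0.41, while Foxo3, a factor of stress resistance, and Foxp1 stood at -0.06 ± 0.17 and -0.08 ± 0.17.

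Klf genes encode zinc finger factors that bind GC-rich and CACCC sequences. Klf7 rose most among them, at 1.31 and 1.62 in JA, 2.28 and 2.31 in JB, and 1.46 and 1.57 in Amy. JB was highest on both arrays and did not overlap the other lines. The mean was 1.76 ± 0.47, or 3.38-fold (adjusted p = 0.00217). Klf10, an early target of TGF-beta, read 0.27 and 1.16 in JA, 0.84 and 1.39 in JB, and 1.03 and 0.65 in Amy. It rose with a mean of 0.89 ± 0.20 (adjusted p = 0.00459), and its lines overlapped. Klf6, Klf9 and Klf15 did not pass, at 0.05 ± 0.23, -0.11 ± 0.20 and -0.35 ± 0.22. The 2 clones of Klf6 had opposite signs, at -0.28 and 0.39, as had those of Klf9, at -0.32 and 0.10.

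Runx1, a runt-domain factor best known from blood formation and also active in epithelial stem cells, rose. It read 0.91 and 0.92 in JA, 1.87 and 1.75 in JB, and 0.94 and 0.54 in Amy. JB was again the highest line on both arrays, and the mean was 1.15 ± 0.57 (adjusted p = 0.0117). The call was lost without JA (0.0597). Gatad1, a chromatin reader with a GATA-type zinc finger and not itself a member of the GATA factors, stood at 0.50 ± 0.16 (adjusted p = 0.0216). Every line read higher on its Cy3 array, with a mean of 0.80, than on its Cy5 array, with a mean of 0.21. The call was lost without JA (0.113), without Amy (0.101) and on the Cy5 arrays (0.304).

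The Tcf symbols measured here name basic helix-loop-helix factors, and the Id proteins are the inhibitors that pair with such factors and keep them off DNA. Tcf4 fell, at -1.62 and -1.68 in JA, -1.57 and -1.55 in JB, and -1.48 and -1.41 in Amy. The 3 lines were nearly equal, with a mean of -1.55 ± 0.10, or 2.93-fold lower (adjusted p = 6.71e-04). Its 3 clones all lay below 0, at -1.46, -1.09 and -2.11. Tcf21, a factor of mesenchymal cells around developing organs, averaged -0.98 ± 0.36 (adjusted p = 0.00734). It read 0.40 and -2.55 in JA, -0.89 and -1.68 in JB, and -0.20 and -0.96 in Amy, so every line was lower on its Cy5 array and 1 array was above 0. The call of Tcf21 was lost with the replicate number as a block (adjusted p = 0.0891), on the Cy3 arrays alone (0.489), without JA (0.0625) and without only the Cy5 array of JA (0.255). Tcf12 averaged -0.31 ± 0.11 (adjusted p = 0.0768) over 4 clones that disagreed: 3 stood at -0.51, -0.78 and -0.72 and the other at 0.78, and each passed in a fit of single clones.

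Of the 3 Id genes, Id3 rose and Id2 and Id4 fell. Id3 read 1.45 and 1.44 in JA, 0.83 and 0.64 in JB, and 2.10 and 2.10 in Amy. The lines did not overlap, Amy was highest and JB lowest, and the 2 arrays of a line differed by less than the lines did. The mean was 1.43 ± 0.68, or 2.69-fold (adjusted p = 0.00930). Id2 read -1.10 and -1.14 in JA, -0.77 and -0.80 in JB, and -0.33 and -0.17 in Amy. Here too the lines did not overlap, with JA the lowest and Amy the nearest to the pool, at a mean of -0.72 ± 0.44 (adjusted p = 0.0279). Id4 stood at -0.42 ± 0.13 (adjusted p = 0.0349), with clones at -0.51 and -0.33. Without JA the adjusted p was 0.0705 for Id3, 0.136 for Id2 and 0.148 for Id4. That of Id4 was 0.100 without JB, 0.0708 without Amy and 0.0939 with arrays centred on their medians.

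Jun, Jund and Fosl2 encode subunits of AP-1, a dimer that responds to growth factors and stress. Jund rose, reading 1.26 and 1.18 in JA, 0.58 and 0.28 in JB, and 0.56 and 0.48 in Amy. JA stood above the other lines, which overlapped, and the mean was 0.72 ± 0.43 (adjusted p = 0.0271). The call was lost without JA (0.0911) or Amy (0.0726) and on the Cy5 arrays (0.0537). Jun read 0.30 and 0.23 in JA, -0.20 and -0.18 in JB, and 1.21 and 1.08 in Amy. Amy was the highest line on both arrays and JB was below the pool on both, so the mean of 0.41 ± 0.68 did not pass (adjusted p = 0.249). By line means all 3 clones of Jun had Amy the highest and JB the lowest. In 1 of them JA and JB stood close, at -0.07 and -0.11. On the Cy5 arrays that clone had JB above JA, at -0.33 and -0.45. Fosl2 stood at -0.09 ± 0.22.

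Among the bZIP factors and relatives outside AP-1, Crebrf fell. It encodes a regulator of CREB3 that also acts on glucocorticoid signaling. Its ratios were -1.62 and -1.73 in JA, -1.61 and -1.89 in JB, and -1.22 and -1.32 in Amy. JA and JB overlapped and Amy was closest to the pool. The mean was -1.57 ± 0.26, or 2.96-fold lower (adjusted p = 0.00119). Atf5, a factor of the stress response, read -0.16 and -0.36 in JA, 0.06 and -0.22 in JB, and -1.38 and -1.16 in Amy. Only Amy was clearly below the pool, and the mean of -0.53 ± 0.64 did not pass (adjusted p = 0.135). Cebpz, a CCAAT-binding factor with a role in ribosome assembly, stood at 0.29 ± 0.22. Of the listed immediate early genes and bZIP partners, 7 of 27 were measured, 2 rose and 3 fell, beside 20.7% and 32.8% of all features. Ier3 and Ier5, induced by growth signals, rose to 2.07 ± 0.03 and 1.08 ± 0.41. The phosphatase Dusp1, which switches off MAP kinases, fell to -2.03 ± 0.50, followed by Ddit3 at -1.36 ± 0.20 and Batf at -1.15 ± 0.39.

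Nuclear receptors bind hormones and other small lipids and act directly on genes. Of the 5 measured under Nr symbols none rose, and Nr2f6 and Nr3c1 fell. The share that passed was 40%, beside 53.5% of all features (20.7% higher and 32.8% lower), so the count says nothing particular of this family. Nr2f6, an orphan receptor that mostly represses, read -1.10 and -1.14 in JA, -1.68 and -1.42 in JB, and -0.38 and -0.46 in Amy. The lines did not overlap, and the mean was -1.03 ± 0.57 (adjusted p = 0.0168), a call lost without JA (0.105). Nr3c1, the glucocorticoid receptor, read -0.74 and -0.86 in JA, -0.71 and -0.81 in JB, and -0.59 and -0.78 in Amy. The lines overlapped at a mean of -0.75 ± 0.06 (adjusted p = 0.00467). Of its 4 clones 3 stood lower, at -1.21, -1.06 and -1.01, and the other at 0.28, so the mean over clones lies above that of the 3. Nr1d1, a clock repressor, and Nr5a2, a factor of digestive organs and bile acid genes, stood at -0.06 ± 0.13 and -0.06 ± 0.48. Nr5a2 was above the pool on both arrays of JA (0.37 and 0.62) and below it on all 4 arrays of JB and Amy. Its 2 spots disagreed in JB, 1 at -1.54 and -0.38 and the other at 0.25 and 0.17, so the sign of JB rests on 1 spot.

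The oxysterol receptor Nr1h2 followed the dye. The Cy3 arrays of JA, JB and Amy read 0.57, 1.04 and 0.67, and their Cy5 arrays read -2.67, -1.42 and -0.75. No line had 1 sign on both arrays, and the mean of -0.43 ± 0.54 (adjusted p = 0.165) describes neither orientation. Zfp655 and Foxp1 also lay above 0 on all 3 Cy3 arrays and below 0 on the other 3, but within 0.78 of 0. Of 24 nuclear receptors with other names, 4 were measured, of which 3 fell: the estrogen receptor Esr1 at -1.36 ± 0.24, the fatty acid receptor Ppara at -1.17 ± 0.33 and Esrra at -0.51 ± 0.19. The retinoic acid receptor Rara stood at 0.07 ± 0.07. Among 8 measured coregulators and receptor chaperones, 3 rose (Med1 at 0.79 ± 0.23, Fkbp4 at 0.66 ± 0.34 and Hsp90ab1 at 0.61 ± 0.09) and the coactivator Ncoa2 fell to -0.66 ± 0.19. Both lists are small and are to be read beside the 20.7% of all features that rose and the 32.8% that fell.

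**Figure D2:**
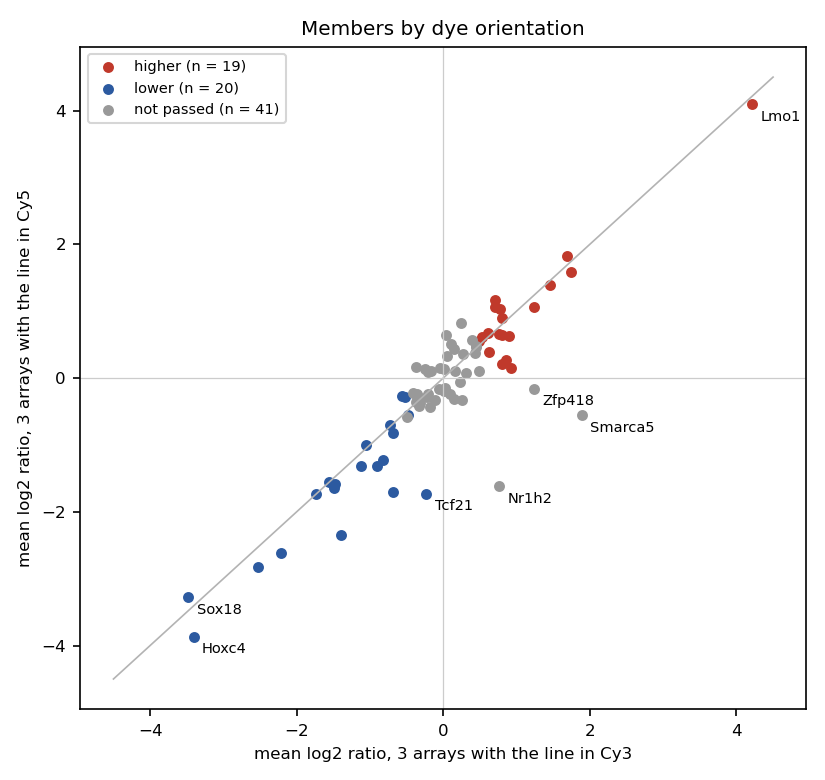
Mean log2 ratio over the 3 Cy3 arrays (x axis) against the 3 Cy5 arrays (y axis) for the 80 members, coloured by call; the line marks equal values. Most points lie near it, while Nr1h2, Smarca5, Zfp418 and Tcf21 lie below it.

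Smad proteins carry signals of TGF-beta and bone morphogenetic proteins to the nucleus, Smad2 and Smad3 for TGF-beta and activin, Smad1 for bone morphogenetic proteins and Smad4 as the common partner. Smad2 rose slightly, at 0.63 and 0.40 in JA, 0.59 and 0.45 in JB, and 0.64 and 0.31 in Amy. Every array was above 0, and the mean was 0.50 ± 0.02 (adjusted p = 0.0152), with clones at 0.48 and 0.53. In JA, JB and Amy 1 clone read 0.61, 0.55 and 0.27 and the other 0.42, 0.49 and 0.68. In every line the first read higher on the Cy5 array and the second on the Cy3 array. The small spread between lines is therefore that of the average, not of either clone. The call was lost without JA (0.0806) or Amy (0.0642) and on the Cy5 arrays (0.0565). Smad1, Smad3 and Smad4 did not pass, at -0.10 ± 0.40, 0.14 ± 0.35 and -0.31 ± 0.36. For Smad3 the average hides 2 clones that each passed in the fit of single clones with opposite signs, at -0.61 and 0.89. Of 35 listed TGF-beta and BMP signaling genes 15 were measured, 3 rose and 5 fell. The share that passed was 53.3%, beside 53.5% of all features, so the count says nothing particular of this list. The activin inhibitor follistatin (Fst) rose to 2.58 ± 0.18, and the ligands Tgfb2 and Tgfb3 to 1.52 ± 1.03 and 1.06 ± 0.55. The receptor Acvr2b fell to -1.37 ± 0.37, Bmp6 to -1.31 ± 0.53 and Bmp2 to -0.46 ± 0.06.

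Zinc finger genes formed the largest family, and 6 rose, 6 fell and 16 of 28 did not pass, with a median of -0.03. The share that passed was 42.9%, beside 53.5% of all features (20.7% higher and 32.8% lower). Most encode C2H2 factors, many of them KRAB repressors of transposons, but Zfp36 and Zfp36l2 bind RNA and speed the decay of AU-rich messages. The lowest were Zfp799 and Zfp870, which lie near each other in the rat genome with 2 coding genes between them in RefSeq. Zfp799 read -2.11 and -3.10 in JA, -2.38 and -2.90 in JB, and -2.14 and -1.85 in Amy, a mean of -2.41 ± 0.36, or 5.32-fold lower (adjusted p = 5.70e-04). Zfp870 read -0.98 and -1.63 in JA, -1.55 and -2.01 in JB, and -1.66 and -3.41 in Amy, a mean of -1.87 ± 0.62 (adjusted p = 0.00332). The lines of both genes overlapped, and all arrays lay below 0. On the Cy3 array of JA the 2 spots of Zfp870 differed by 3.98, at -2.97 and 1.01. Genes of this family can be similar in sequence, so a cDNA clone may also bind a relative's message, and each value is uncertain in that respect.

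Zfp575, Zfp74 and Zfp579 also fell by about 2-fold. Zfp575 stood at -1.19 ± 0.17 (adjusted p = 0.00181), with means of -0.68 on the Cy3 arrays and -1.70 on the Cy5 arrays. Zfp74 stood at -1.11 ± 0.43 (adjusted p = 0.00685) and Zfp579 at -1.02 ± 0.33 (adjusted p = 0.00542). On the Cy5 array of JB, 1 spot of Zfp579 read -2.64168 and 1 of Zfp870 read -1.64168, with the same decimals. The other Zfp579 spot there read -0.78. Further spots of Zfp870 showed the same. Its other spot there read -2.37865 and 1 of Nr5a2 -0.37865. On the Cy3 array of JB, 1 spot each of Zfp870 and Zfp74 held -1.15082. On the Cy5 array of Amy, 1 of Zfp870 read -3.26078 and 1 of Smarca5 -2.26078. Whether such values mark dim spots was not tested. Zfp617 fell least, to -0.41 ± 0.10 (adjusted p = 0.0346), a call lost with centred arrays (0.0891), without any 1 of the lines (0.0597 to 0.144) and on the Cy5 arrays (0.121). Zfp330, a protein of the nucleolus and centromere region, rose most, to 0.85 ± 0.43 (adjusted p = 0.0163), with JA at 1.05, JB at 0.35 and Amy at 1.15. Zfp322a followed at 0.76 ± 0.26 (adjusted p = 0.00998), with its 2 spots at 0.17 and 2.40 on the Cy3 array of Amy, its highest line. Zfp148, a GC-box-binding factor, stood at 0.64 ± 0.13 (adjusted p = 0.00937). Zfp455l1 and Zfp385b rose to 0.56 ± 0.28 and 0.54 ± 0.07, with means of 0.85 and 0.93 on the Cy3 arrays against 0.26 and 0.15 on the Cy5 arrays. On the Cy5 arrays alone neither passed (adjusted p = 0.323 and 0.377). Zfp972, the neighbour of Zfp455l1 with 0 coding genes between them, stood at 0.07 ± 0.14 and did not pass. Without JA the calls of Zfp330 (0.106), Zfp148 (0.0660), Zfp455l1 (0.149) and Zfp385b (0.0711) were lost, without Amy those of Zfp330 (0.0861) and Zfp385b (0.0693), and without JB that of Zfp455l1 (0.0693).

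The RNA-binding Zfp36, tristetraprolin, stood at 0.52 ± 0.31 (adjusted p = 0.0403), with JA at 0.37, JB at 0.31 and Amy at 0.88. That value rests on 1 of its 3 clones, at 1.46, while the others stood at -0.04 and 0.14, and only that clone passed in the fit of single clones. The call was also lost without JA (0.113) or Amy (0.151). Zfp36l2 read 0.10 and -0.03 in JA, 1.26 and 1.41 in JB, and within 0.02 of 0 on both arrays of Amy. JB alone was higher, by at least 1.16 in each dye orientation, and the mean of 0.46 ± 0.76 did not pass (adjusted p = 0.236). Zfp418 shows 1 deviating array: it read 3.84 on the Cy3 array of JA and between -0.45 and 0.04 on the other 5. Zfp410 and Zfp46 missed the threshold at -0.38 ± 0.23 and -0.37 ± 0.19 and passed with the replicate number as a block (adjusted p = 0.0433 for both). The other 12 that did not pass (Zfp612, Zfp24, Zfp787, Zfp260, Zfp972, Zfp668, Zfp655, Zfp644, Zfp512b, Zfp513, Zfp592 and Zfp110) had means from -0.34 to 0.32.

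**Figure D3:**
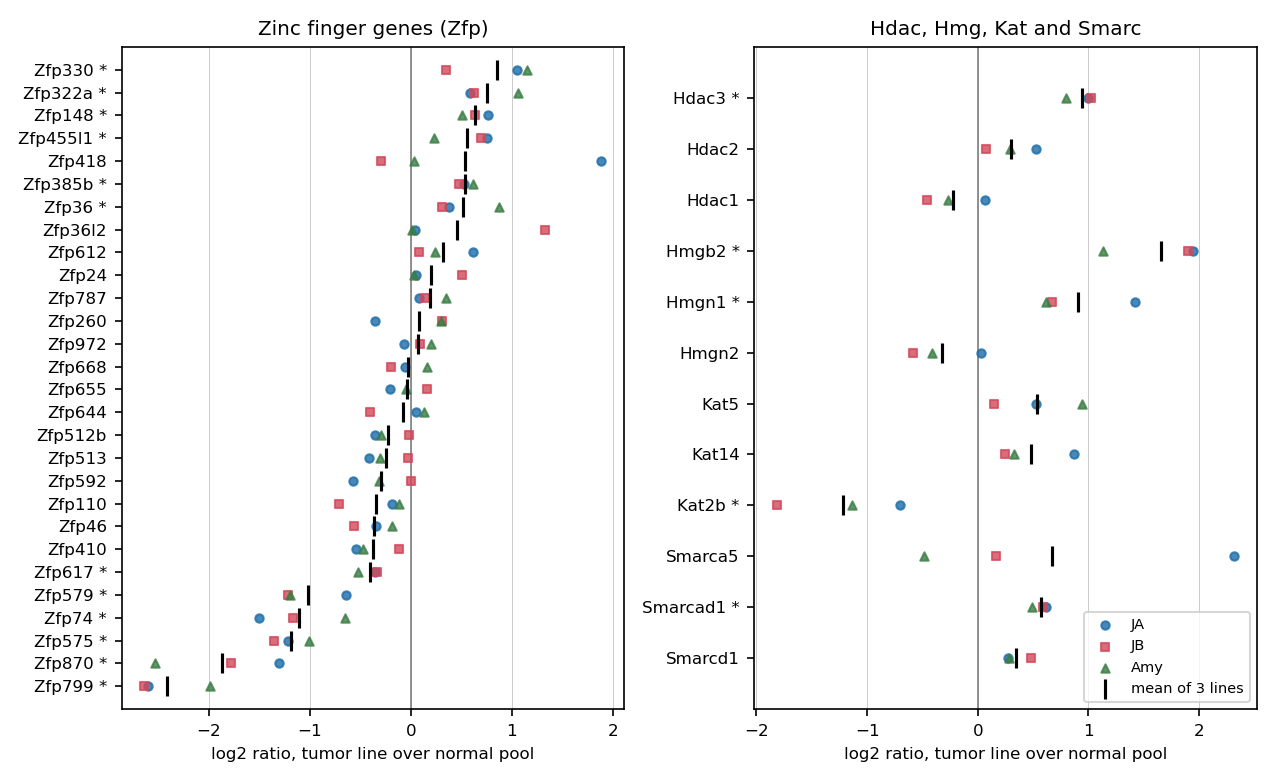
Log2 ratio of each tumor line over the normal pool (x axes) for the 28 zinc finger genes (left) and the 12 chromatin genes (right), with symbols as lines, bars as means and stars for genes that passed. Zfp799 and Zfp870 are the lowest zinc finger genes, and Zfp418 and Smarca5 have JA far to the right of the other lines.

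Among the 12 chromatin genes 4 rose and 1 fell, and their median was 0.51. Their share of calls was 41.7%, beside 53.5% of all features. Hmgb2, a DNA-bending protein abundant in dividing cells, read 1.99 and 1.90 in JA, 2.001 and 1.80 in JB, and 1.22 and 1.05 in Amy. JA and JB overlapped, Amy was lower, and the mean was 1.66 ± 0.45, or 3.16-fold (adjusted p = 0.00246). Hmgn1, which binds nucleosomes and loosens chromatin, read 1.34 and 1.505 in JA, 0.48 and 0.87 in JB, and 0.52 and 0.72 in Amy. JA stood above the other lines, and the mean of 0.91 ± 0.45 passed (adjusted p = 0.0143), but not without JA (0.0505). Its relative Hmgn2 stood at -0.32 ± 0.32, with clones at -0.41 and -0.23.

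Histone deacetylases remove acetyl groups and mostly silence genes. Hdac3, the enzyme of the nuclear receptor corepressor complex, rose, at 0.81 and 1.18 in JA, 0.64 and 1.41 in JB, and 0.66 and 0.93 in Amy. All arrays lay above 0, the lines overlapped, and the mean was 0.94 ± 0.12, or 1.92-fold (adjusted p = 0.00293). Hdac1 and Hdac2, the paired enzymes of the Sin3 and NuRD complexes, stood at -0.22 ± 0.27 and 0.30 ± 0.22 and did not pass. Of the histone acetyltransferases, Kat2b (PCAF) fell, at -0.49 and -0.92 in JA, -1.73 and -1.90 in JB, and -1.14 and -1.14 in Amy. The lines did not overlap, JB was lowest, and the mean was -1.22 ± 0.56, or 2.33-fold lower (adjusted p = 0.00924). Kat5 (Tip60) and Kat14 missed the threshold at 0.54 ± 0.40 (adjusted p = 0.0548) and 0.48 ± 0.34 (adjusted p = 0.0586). Both passed with arrays centred on their medians (0.0339 and 0.0338) and with the replicate number as a block (0.0339 and 0.0320).

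Smarc proteins are parts of nucleosome remodelers. Smarcad1, which helps restore silent chromatin after replication, rose evenly, at 0.55 and 0.69 in JA, 0.52 and 0.66 in JB, and 0.51 and 0.48 in Amy, a mean of 0.57 ± 0.07 (adjusted p = 0.0112). The call was lost without JA (0.0710). Smarcd1, a subunit of the SWI/SNF complex, stood at 0.34 ± 0.12 (adjusted p = 0.0591) and passed with centred arrays (0.0221), with the replicate number as a block (0.0359) and on the Cy5 arrays (0.0179). Smarca5, the motor of ISWI remodelers, read 4.72 on the Cy3 array of JA but -0.08 on the other JA array. It read 0.08 and 0.25 in JB, and 0.87 and -1.84 in Amy. Its mean of 0.67 ± 1.47 did not pass (adjusted p = 0.337) and rests on the Cy3 array of JA. Both of its spots there held the identical value 4.71902. On the Cy5 array of JB, 1 spot each of Smarca5, Nr5a2 and Zfp612 held 0.16567. Whether such repeated values mark dim spots was not tested. Among all features 3 stood at least 3 above every other array on the Cy3 array of JA, and Smarca5 and Zfp418 were 2 of them. Without these genes the dye-swapped arrays of JA correlated at 0.883 over 78 members, against 0.761 over all 80, 0.905 in JB and 0.90 in Amy.

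The surrounding machinery was counted from lists of gene symbols, to be read beside the 20.7% of all features that rose and the 32.8% that fell. Among 11 other chromatin genes 6 rose and none fell, with a median of 0.39. The histone variants H2az1 and H3f3b stood at 1.47 ± 0.47 and 0.74 ± 0.10 and the histone chaperone Rbbp7 at 1.13 ± 0.39. Of 8 genes that E2F factors control or work with, 7 rose and 1 did not pass, led by Ccne1 at 3.08 ± 0.53, Cdk1 at 2.91 ± 0.47 and Rfc4 at 2.11 ± 0.74. Tfdp1, the DNA-binding partner of E2F proteins, rose to 1.39 ± 0.32. Of 8 general transcription genes 4 rose and 3 fell, with the RNA polymerase II subunits Polr2c and Polr2k at opposite ends, 2.001 ± 0.23 and -1.73 ± 0.11. Of 25 other sequence-specific factors 7 rose and 6 fell, with a median of -0.11. Hif1a, the oxygen-regulated factor, stood at 2.58 ± 0.24, Tsc22d1 at 0.955 ± 0.17 and Nfya at 0.69 ± 0.18, while Stat3, the cytokine-signaling factor, averaged -2.89 ± 2.20, Nfix -1.51 ± 0.36 and Irf9 -1.37 ± 0.17.

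The lines had like numbers of changed members. JA, JB and Amy each had 6 members at least 2-fold higher than the pool on both arrays, against 7.42%, 5.93% and 4.97% of all features. At least 2-fold lower on both arrays were 10, 11 and 12 members, against 13.6%, 11.4% and 12.0%. Their medians were -0.03, -0.01 and -0.02. A line was counted as apart where it differed by at least 1 from both others within each dye orientation, with no test since each line is 1 extract. Only Hoxc4 and Zfp36l2 met this, both with JB higher, a pattern that 1.30% of all features showed. No member had JB lower (0.696% of all features), JA higher or lower (0.0696% and 0.292%) or Amy higher or lower (0.306% and 0.195%). At a difference of 0.75, Sox4 and Runx1 joined them with JB higher, Foxn3 with JA lower, Jun with Amy higher and Atf5 with Amy lower. Of all features, 2.38%, 0.571%, 0.724% and 0.585% met these at that size. For Foxn3, 1 clone fell short of that size, with JA at -2.26 and JB at -1.82 on the Cy3 arrays. In 13 members (16.2%), 2 lines lay on opposite sides of the pool, each on both of its arrays, against 10.4% of all features.

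Of the 17 members measured by several clones, 7 had clones with means of opposite sign: Klf6, Klf9, Nr3c1, Smad3, Tcf12, Zfp36 and Zfp512b. The widest ranges were 1.56 in Tcf12, 1.51 in Smad3, 1.497 in Zfp36 and 1.49 in Nr3c1. The narrowest were 0.05 in Smad2, whose clones ordered the lines in opposite ways, and 0.06 in Smad4. In Smad3 and Zfp36 all clones carry the same accession in the platform annotation, and in Tcf12 and Nr3c1 the deviating clone shares its accession with 2 of the others. The 32 called members with a single clone could not be checked in this way. No clone sequence was used here, and the cause of the disagreement was not tested.

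**Figure D4:**
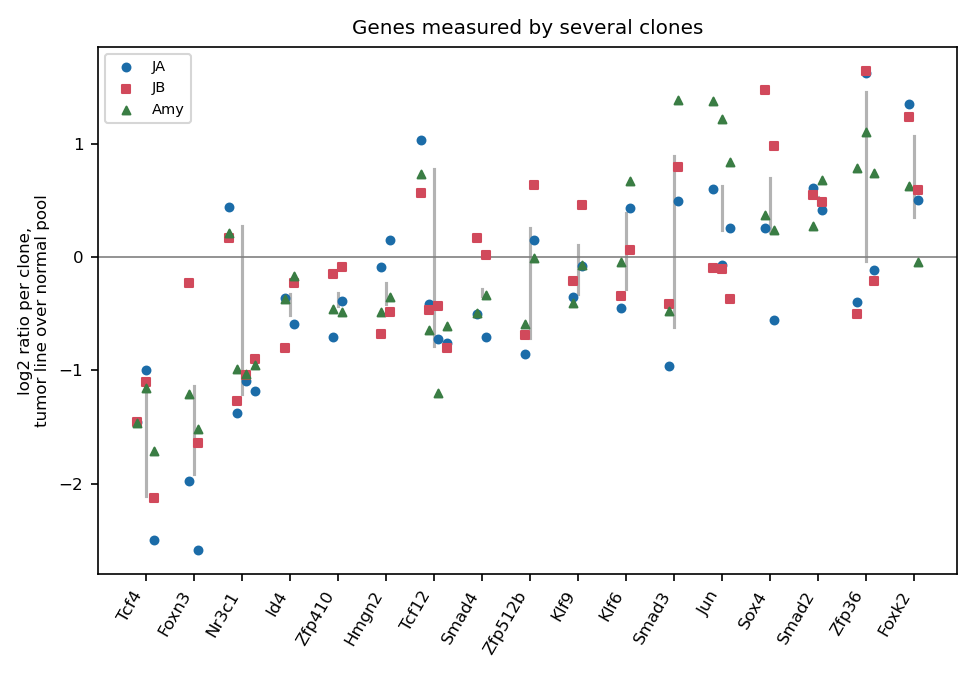
Log2 ratio of each clone in JA (circles), JB (squares) and Amy (triangles) for the 17 members with several clones; columns within a gene are its clones and the grey line spans their means. All clones of Tcf4 and Foxn3 lie below 0, while Tcf12, Smad3, Nr3c1 and Zfp36 have clones on both sides.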

How the data were processed

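RNA of 3 tumor lines was compared with 1 normal pool on 6 two-channel cDNA arrays. The deposited values are log ratios, 1 per spot, used as log2; the authors' scanner, background correction, normalization and filters are steps not given in the sources used here. Intensities were not used, so a large ratio may be a bound set by a dim channel. The lowest value, -12.7, would exceed a scanner's range in base 10. None of the 16128 spots lacked a value. Medians per array ran from -0.17 to -0.05, and the correlation of duplicate spots from 0.907 to 0.949. Array number limits precision.

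Spots were averaged per gene symbol of the platform annotation, and pairs of spots without a single symbol were kept as clones, giving 7180 features. All 80 members matched RefSeq (GRCr8) by gene identifier, and 0 symbols changed. The dye-swapped arrays of a line share their extracts and were averaged. The 3 line means were tested against 0 with limma 3.58.1 (lmFit, eBayes, intercept only, two-sided) in R 4.3.3, adjusted by Benjamini-Hochberg over all features. The pool's own spread was not measured and is left out. Where an alternative gave the pool a spread, it was that of a mean of 2 lines, taken from the tumor lines. The replicate number is the dye orientation per the labels; dye deviations correlated between lines at 0.613, 0.552 and 0.526, so the numbers pair the arrays. The fit was tested on simulated data. Members and lists were chosen with earlier results of these data known. Genes named were those with the highest and lowest means among calls of 1 sign on every array (15 or fewer each), all members of the small families, those that set a line apart or had discordant clones, and up to 3 per direction in each list. Tcf21, Zfp455l1 and the other zinc finger genes outside this rule were named after their values were seen. Figures used matplotlib 3.10.9 in Python 3.11.15.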

Additional observations from a re-analysis of the deposited data

Results flagged for a closer look

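In 13 members, 2 lines lay on opposite sides of the pool on both of their arrays, as in 10.4% of all features; the differences between lines were not tested, since each line is 1 extract. The gap between the line means was 1.38 for Sox4 (JB and Amy above, JA below) and 1.34 for Jun (JA and Amy above, JB below). Of the Sox4 clones only 1 had JA below the pool, at -0.56, and the other had JA at 0.26. Of the Jun clones only 1 had JB below the pool on both arrays, at -0.34 and -0.40. The others had JB at -0.38 and 0.19, and at 0.12 and -0.33. For Nr5a2 the gap was 0.87 (JA above, JB and Amy below), with the sign of JB resting on 1 spot. For Smad1 the gap was 0.78 (Amy above, JB below). Smad4 (JB above, JA and Amy below) and Smad3 (JB and Amy above, JA below) gave 0.70 and 0.69. Neither clone of Smad3 showed this split, which arose on averaging them. In JA, JB and Amy 1 clone stood at -0.96, -0.41 and -0.47 and the other at 0.50, 0.79 and 1.39. Among the zinc finger genes the gap was 0.67 for Zfp260 (JB and Amy above, JA below), 0.45 for Zfp644 (JA above, JB below), 0.36 for Zfp668 and 0.33 for Zfp418 (both with Amy above and JB below) and 0.27 for Zfp972 (JB and Amy above, JA below). Klf6 (Amy above, JB below) gave 0.45 and Foxo3 (JA above, JB and Amy below) 0.34. By line means neither clone of Klf6 showed the split. In JA, JB and Amy 1 stood at -0.45, -0.34 and -0.05 and the other at 0.43, 0.06 and 0.67. The gap was under 0.5 in 6 of these 13 genes.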

How the results depend on the processing

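Over all features, 1487 higher and 2356 lower calls became 667 and 1303 with the pool given a spread, 300 and 740 without moderation of variances, and 796 and 1494 at a threshold of 0.01; with a line or an array left out they ranged from 709 to 1448 and from 1367 to 2301. Members went from 19 higher and 20 lower to 5 and 12 with a pool spread, 5 and 5 without moderation and 8 higher at 0.01, and ranged from 6 to 21 and from 14 to 21 with a line or array left out. With the replicate block (dye orientation as a term, line as a random block) 22 members were higher and 21 lower; it ended the call of Tcf21, added those of Kat5, Kat14, Smarcd1, Zfp410 and Zfp46, and changed no other call of a member. With centred arrays 37 of the 39 members kept their calls, and the split was 23 higher and 18 lower (all features 1844 and 1981). Cebpz passed there too (adjusted p = 0.0445). Called in every alternative on gene values were Lmo1, Hdac3, Hoxb2, Nr3c1, Sox18 and Tcf4. Zfp575 was called in every alternative that held it. The fit without features whose dye orientations lay over 1 apart left it out, at a difference of -1.02. Without JB, Kat5 (0.0154), Zfp410 (0.0362), Smad4 (0.0389), Kat14 (0.0396), Jun (0.0458) and Atf5 (0.0463) passed. Nr1h2 turned to 0.76 on the Cy3 arrays. List genes that are no members counted 32 higher and 21 lower, and from 14 to 28 and from 13 to 25 with a line left out. At a difference of 0.75, 7 members set a line apart. Causes were not tested. Without intensities the precision of dim spots is unknown. Updated symbols gave the same 80 members.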
